A study of Mus musculus with 5 samples.

Results

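The NRF2 antioxidant genes are 10 genes chosen by name: NFE2L2, NQO1, HMOX1, GCLC, GCLM, TXNRD1, SRXN1, SLC7A11, GSTM1 and PRDX1. All 10 were found among the 13979 gene symbols that were shared by the 3 tables used here. NRF2, the transcription factor encoded by NFE2L2, is held at a low level by KEAP1, which presents it to a CUL3 ubiquitin ligase for degradation. When oxidants or electrophiles modify KEAP1, NRF2 accumulates, pairs with a small MAF protein and binds antioxidant response elements in the promoters of its target genes. The targets build glutathione, keep thioredoxin and peroxiredoxin reduced, degrade heme and detoxify quinones, and many tumors, lung cancer among them, rely on this program.

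RNA was sequenced from 5 groups, Control, PAZA, BMN, BMN/PAZA at a low dose and BMN/PAZA at a high dose, with 1 library per group. BMN (BMN673) inhibits PARP, an enzyme of DNA break repair, and PAZA is a polymer carrier to which 5-azacytidine, an inhibitor of DNA methyltransferases, is attached. The low and high doses named in the paper are 0.25 and 2 mg/kg of both BMN and azacytidine. The sample labels describe LLC cells, a mouse Lewis lung carcinoma line, kept in culture and treated for 72 h. The paper instead describes LLC tumors in female C57BL/6 mice, bought at 4 to 6 weeks of age, collected for sequencing 1 day after the last treatment. Its treatment experiment gave saline (Control) or drug into a vein once every 3 days, 5 times in all. BMN alone and PAZA alone are named there at 0.25 mg/kg for the comparisons of tumor RNA with the low dose, so the high dose differs from BMN in dose as well. Whether tumors were pooled is not given in the sources used here. Markers of leukocytes, macrophages, endothelium and fibroblasts were above 0 in all 5 libraries. In bulk RNA, fewer cells of a type and less RNA per cell cannot be told apart.

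The level of a gene is its deposited value, read as FPKM (fragments scaled by transcript length and sequencing depth), rescaled so that the shared genes of each library sum to 1000000. It can be compared between genes because it is per length. A difference is given on the log2(level + 1) scale, and a gene is said to be past the fold when this difference is at least 0.58 in size, a fold of 1.5. No test was possible with 1 library per group, so nothing measures the spread between tumors. Products of value and transcript length clustered at whole multiples of 1 weight, which puts the libraries at about 6120000 to 8690000 fragments. Fragments per gene were estimated from these weights, and the 95% intervals below are exact binomial or Poisson intervals on those estimates that cover counting error only. Each of the 10 genes kept the same ratio between tables as most other genes did, within 0.00195%, wherever a library was deposited in more than 1 table.

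The antioxidant response element has the core TGACNNNGC, and the stretches of the promoters that hold it are shown because these letters are the ones NRF2 is known to bind. RefSeq promoters (GRCm38.p6, 250 bases before to 50 after a start site) were matched for 8 of the 10 genes, all but HMOX1 and GCLC, with 11 promoters in all. The core was found on either strand in 5 of these 11 promoters, and 12.4% of all 32851 promoters of this length hold it. Each stretch is written 5′ to 3′ on the strand where the core reads TGACNNNGC, with the core in capitals.
PRDX1: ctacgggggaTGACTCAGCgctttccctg
NFE2L2: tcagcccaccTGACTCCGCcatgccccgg
GCLM: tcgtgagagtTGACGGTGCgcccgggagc
TXNRD1: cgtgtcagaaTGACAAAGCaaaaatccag
SRXN1: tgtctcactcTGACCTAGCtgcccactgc
These stretches lie at chr4:116685456-116685484 for PRDX1, chr2:75704885-75704913 for NFE2L2, chr3:122245413-122245441 for GCLM, chr10:82859104-82859132 for TXNRD1 and chr2:152105542-152105570 for SRXN1, all on the minus strand. Counted in the direction of the gene, the match starts at -133 from the start site in PRDX1, -240 in NFE2L2, -134 in GCLM, -92 in TXNRD1 and 28 in SRXN1. The TXNRD1 match belongs to 1 of 3 annotated promoters of the gene. In the promoters of NQO1, SLC7A11 and GSTM1 these letters were not in the window. A match is a description of the letters and not a measured binding site.

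The levels of the target genes were split and did not share a common shift. Against Control, 0 of 10 genes were past the fold in PAZA and 2 of 10 in each other treated library. Of all genes, 19.7% to 26% were past it in these comparisons. Against BMN, 4 of 10 were past it at each dose of BMN/PAZA, beside 27.8% and 29.4% of all genes. With 1 library per group, whether the split exceeds the scatter among all genes was not tested. TXNRD1 and GCLM were highest in BMN and lowest in both BMN/PAZA libraries, HMOX1 was highest in low-dose BMN/PAZA, and NFE2L2 itself moved less than any of these 3 genes. PRDX1, SRXN1, SLC7A11, GCLC and NFE2L2 stayed short of a fold of 1.5 on the log2(level + 1) scale in every comparison as scaled here, although GCLC in PAZA was at 0.657 of the Control level. The share of all genes that stayed short of this fold in every comparison was not computed. NQO1 and GSTM1 were near the limit of detection.

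**Figure D1:**
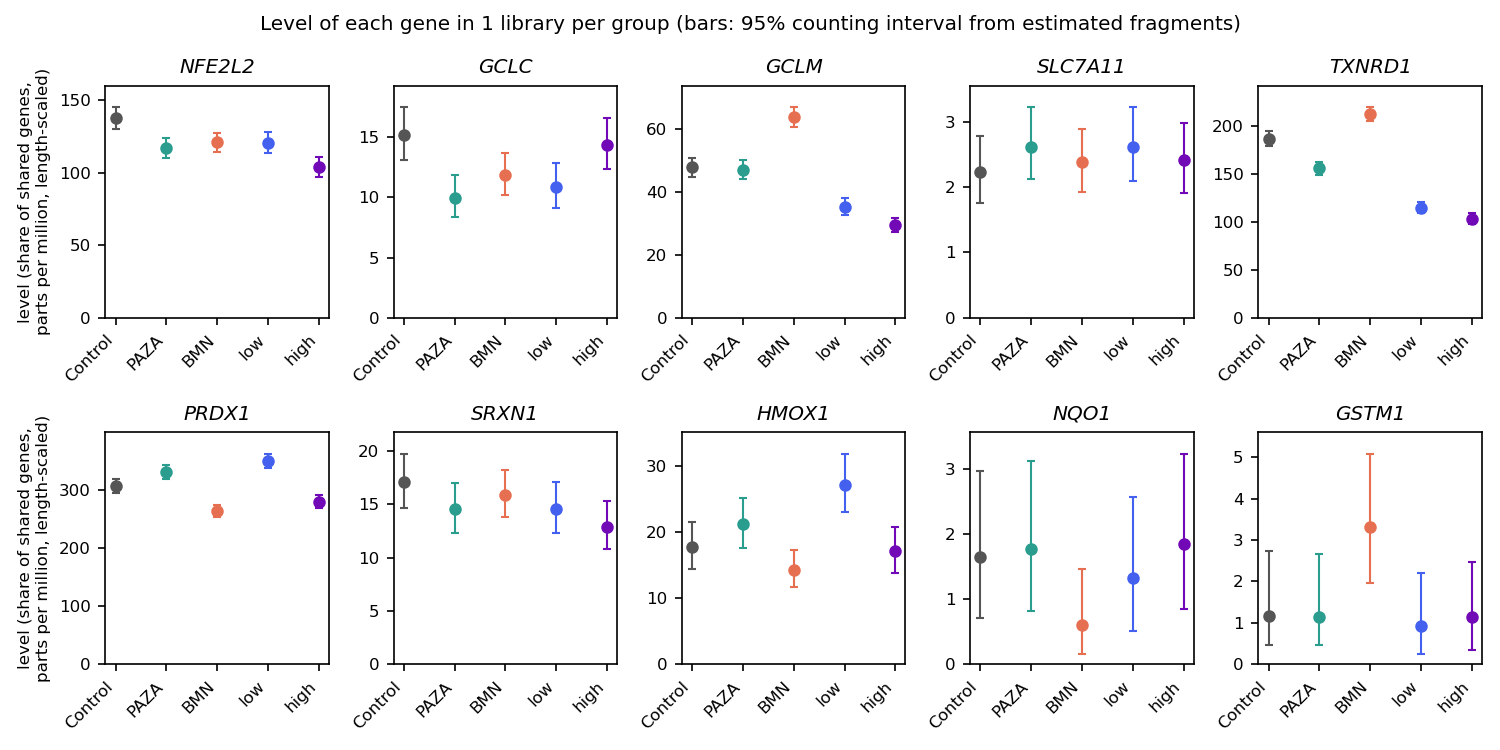
Level of the 10 genes (y axis, FPKM rescaled to a sum of 1000000 over the shared genes) in Control, PAZA, BMN, low-dose and high-dose BMN/PAZA (x axis), 1 library each. Points are levels and bars are 95% counting intervals from estimated fragments. TXNRD1 and GCLM are highest in BMN and lowest in the BMN/PAZA libraries, HMOX1 is highest at the low dose, and the intervals of NQO1 are wide.

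NFE2L2, which encodes NRF2, lies on chromosome 2 of GRCm38 from 75675513 to 75704641 on the minus strand. Its level was 137 in Control, 117 in PAZA, 121 in BMN, 120 in low-dose BMN/PAZA and 104 in high-dose BMN/PAZA. The Control library was the highest and the high dose the lowest, and the levels of BMN, the low dose and PAZA could not be ordered beyond counting error. The differences from Control ran from -0.40 at the high dose to -0.18 in BMN, none past the fold. With libraries scaled by the median ratio of all genes, all treated libraries were again below Control (130), but BMN (107) was then the lowest and not the high dose (117). KEAP1, the inhibitor of NRF2, was at 10.8 in Control and between 8.18 and 9.86 in the treated libraries. The ratio of NFE2L2 to KEAP1 within a library, which no scaling can change, was 12.7 in Control, 14.2 in PAZA, 13.8 in BMN, 12.2 at the low dose and 12.7 at the high dose.

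TXNRD1 encodes the cytosolic thioredoxin reductase, a selenoprotein that uses NADPH to keep thioredoxin reduced, and lies on chromosome 10 from 82833951 to 82897712. Its level was 187 in Control, 156 in PAZA, 213 in BMN, 115 in low-dose BMN/PAZA and 103 in high-dose BMN/PAZA. All 3 libraries with PAZA were below both libraries without it, and the BMN/PAZA libraries were below PAZA alone. Between 1336 and 3395 estimated fragments stood behind each value. The low dose was at 0.615 of the Control level (95% counting interval 0.576 to 0.656) and the high dose at 0.553 (0.517 to 0.591). Against BMN the ratios were 0.54 (0.508 to 0.575) and 0.486 (0.456 to 0.518). Each of these 4 differences was past the fold of 1.5 under all alternative settings that were run for it. Every step in the order of the libraries exceeded counting error as scaled here, although with median ratio scaling both doses stood at 117. PAZA alone differed from Control by -0.26 and from the low dose, which was lower, by 0.44 in size, both short of the fold.

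TXN1, which encodes thioredoxin, the substrate of TXNRD1, did not share its order. It was at 126 in Control, 153 in PAZA, 137 in BMN, 167 at the low dose and 148 at the high dose. The ratio of TXNRD1 to TXN1 within a library was 1.49 in Control and 1.56 in BMN, 1.02 in PAZA, and 0.69 and 0.70 at the low and high dose. The plot of ratios within a library shows the same order for TXNRD1 over PRDX1, at 0.609 in Control, 0.472 in PAZA, 0.807 in BMN, 0.329 at the low dose and 0.37 at the high dose. TXNRD2, the mitochondrial reductase, did not share the order of TXNRD1, with 6.13 in Control, 6.14 in PAZA, 11.3 in BMN, 8.44 at the low dose and 4.30 at the high dose.

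**Figure D2:**
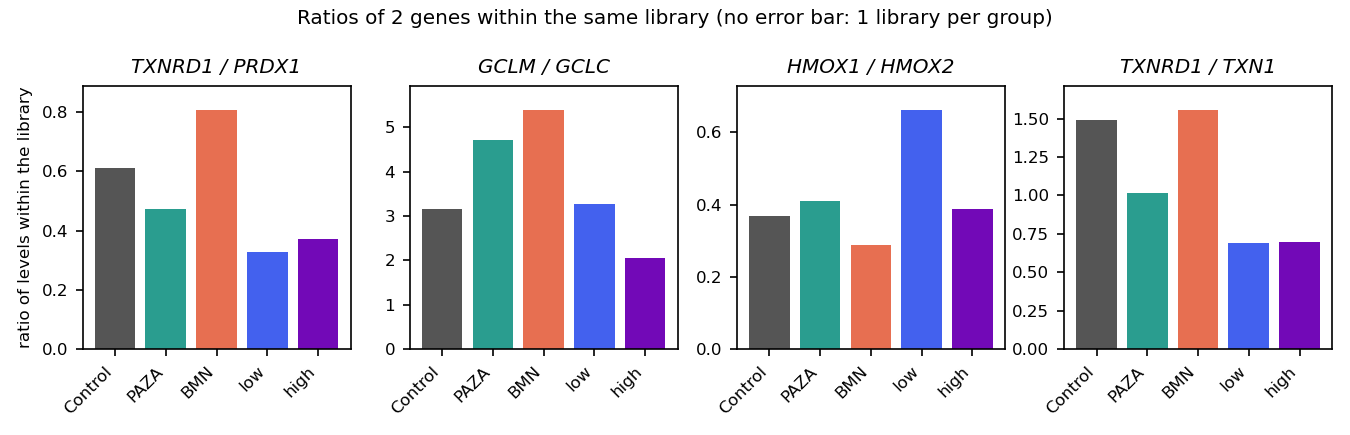
Ratio of the levels of 2 genes (y axis) within each library (x axis: Control, PAZA, BMN, low-dose and high-dose BMN/PAZA), which does not depend on how libraries are scaled. TXNRD1 over TXN1 stands at 1.49 and 1.56 in Control and BMN and at 0.69 and 0.70 in the BMN/PAZA libraries, and HMOX1 over HMOX2 is highest at the low dose, at 0.662.

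MKI67 and the summed proliferation markers were also highest in BMN. Of the single markers, TOP2A and BUB1 were highest there too. CDK1 and PLK1 were instead highest in PAZA (363 and 25.3) and CCNB1 at the low dose (42.9). MKI67 stood at 154 in Control, 97.0 in PAZA, 207 in BMN, 94.2 at the low dose and 108 at the high dose, which put the libraries with PAZA below the others, as for TXNRD1. The summed level of the 6 proliferation markers, from 654 at the high dose to 884 in BMN, was 821 in PAZA and 698 in Control and so did not follow that order, with 6 of 6 above 0 in each library. Their part in the TXNRD1 result was not tested. Among 11213 other genes with a mean level of at least 1, the profiles closest to TXNRD1, a gene chosen for this after its values were seen, belonged to LYPD1, DOCK10, LATS2, MAD2L2 and FOXO4. Their root mean square differences from it were 0.042 to 0.065 in log2 over 5 libraries. The LATS2 values were not proportional between tables.

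GCLM and GCLC encode the modifier and the catalytic subunit of glutamate-cysteine ligase, which makes the first and rate-limiting step of glutathione synthesis. GCLM, on chromosome 3 from 122245557 to 122270732, was at 47.9 in Control, 47.0 in PAZA, 63.9 in BMN, 35.4 in low-dose and 29.4 in high-dose BMN/PAZA. BMN stood above all other libraries and both BMN/PAZA libraries stood below them, while Control and PAZA did not differ beyond counting error. The level at the low dose was 0.554 of that in BMN (0.506 to 0.605) and at the high dose 0.461 (0.419 to 0.506), and both differences stayed past the fold in every setting run. The high dose was at 0.615 of Control (0.555 to 0.681), a difference of -0.68 that was no longer past the fold with scaling over all symbols or by the median ratio (-0.44). The low dose differed from Control by -0.43 and BMN by 0.41, neither past the fold.

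GCLC, on chromosome 9 from 77754535 to 77794485, did not share this order. Its level was 15.2 in Control, 9.98 in PAZA, 11.8 in BMN, 10.8 at the low dose and 14.4 at the high dose, from 130 to 193 estimated fragments. Control and the high dose were the highest. No neighbours in the order differed beyond counting error, but PAZA was at 0.657 (0.523 to 0.827), the low dose at 0.713 (0.568 to 0.894) and BMN at 0.779 (0.632 to 0.957) of Control. The largest difference, -0.56 for PAZA against Control, was short of the fold on the log2(level + 1) scale and passed it with a pseudocount of 0.1. The ratio of GCLM to GCLC was 3.15 in Control, 4.71 in PAZA, 5.39 in BMN, 3.26 at the low dose and 2.05 at the high dose.

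SLC7A11, on chromosome 3 from 49892526 to 50443614, encodes the transport subunit of the cystine importer that feeds glutathione synthesis. As scaled here, it had the narrowest range of the 10 genes, from 2.23 in Control to 2.62 in PAZA, with 2.38 in BMN, 2.61 at the low dose and 2.41 at the high dose. No neighbours in this order differed beyond counting error, and between 76.2 and 99.1 fragments were estimated per library. SLC3A2, its partner chain, was at 73.3 to 88.3 in the 5 libraries. GSS, the enzyme of the last step of glutathione synthesis, was at 5.63 in Control, 7.14 in PAZA, 4.54 in BMN, 8.998 at the low dose and 5.32 at the high dose. With median ratio scaling, SLC7A11 ran from 2.10 in BMN to 2.73 at the high dose (0.26 in log2). SRXN1 then had a narrower range, with BMN against Control at -0.19.

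PRDX1, a peroxiredoxin that reduces peroxides with electrons from thioredoxin, lies on chromosome 4 from 116685544 to 116700822 and was the most abundant of the 10 genes. It was at 307 in Control, 330 in PAZA, 264 in BMN, 350 at the low dose and 279 at the high dose. The low dose was highest and BMN lowest, and each step in the order exceeded counting error. No difference was past the fold, the largest being 0.41 for the low dose against BMN, which passed the fold only with median ratio scaling. That scaling also moved the high dose from below Control (279 against 307) to above it (316 against 291). Of the windows of 50 bases along its transcript, 10.9% also occur in another annotated gene, so a share of its reads could be split with a near-identical copy. SRXN1, the sulfiredoxin that repairs over-oxidised peroxiredoxins, lies on chromosome 2 from 152105516 to 152111376. It was at 17.1 in Control, 14.5 in PAZA, 15.9 in BMN, 14.6 at the low dose and 12.9 at the high dose, with no step between neighbours beyond counting error. As scaled here, the high dose was at 0.755 of Control (0.60 to 0.953), and the other treated libraries did not differ from Control beyond counting error. With median ratio scaling the high dose stood at 14.6 against 16.2 in Control, a difference of -0.14, and BMN (14.1) was the lowest. Counting intervals were not computed for that scaling.

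HMOX1, on chromosome 8 from 75093621 to 75100589, encodes heme oxygenase 1, which is inducible and breaks heme down to biliverdin, iron and carbon monoxide. Its level was 17.7 in Control, 21.1 in PAZA, 14.2 in BMN, 27.2 in low-dose and 17.1 in high-dose BMN/PAZA, from about 98.5 to 154 fragments. The low dose stood above all other libraries, while PAZA, Control, the high dose and BMN, in this order, had no step between neighbours beyond counting error. BMN was at 0.804 of Control, also within counting error. The low dose was 1.91 times BMN (1.48 to 2.48), a difference of 0.89 that stayed past the fold in every setting run. It was 1.53 times Control (1.19 to 1.99), at 0.59 just past the fold, and 0.57 when libraries were taken from the other table. It was 1.58 times the high dose (1.23 to 2.08), at 0.63, but 0.49 with median ratio scaling and so short of the fold. PAZA differed from Control by 0.24.

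HMOX2, the constitutive heme oxygenase, was lowest where HMOX1 was highest. It stood at 48.0 in Control, 51.5 in PAZA, 49.4 in BMN, 41.1 at the low dose and 44.3 at the high dose, so that the ratio of HMOX1 to HMOX2 was 0.369, 0.41, 0.288, 0.662 and 0.387 in the same order. FTL1, the ferritin light chain that stores iron, had the order of libraries listed for HMOX1, at 108 in Control, 152 in PAZA, 82.7 in BMN, 164 at the low dose and 104 at the high dose. BLVRA, which turns biliverdin into bilirubin, had this order as well, at 21.7 in Control, 25.9 in PAZA, 19.4 in BMN, 27.1 at the low dose and 20.2 at the high dose. Other heme and iron genes did not share it. FTH1, the other ferritin chain, was highest in BMN (1310) and lowest at the low dose (1037). BLVRB was highest at the high dose (97.2) and FECH in BMN (51.6). The profile closest to HMOX1, a gene chosen for this after its values were seen, was that of GSS, at a root mean square difference of 0.029, followed by RPS7, FAAP100, RPLP0 and RPS25, which include 3 genes of the cytosolic ribosome. Macrophages are known to express HMOX1. The 8 macrophage markers were all above 0 and summed to 486 in Control, 544 in PAZA, 555 in BMN, 501 at the low dose and 386 at the high dose. BMN was highest in this sum, to which MRC1 alone gave 244 in BMN. The median over the markers was instead highest in PAZA, at 72.1, with 63.7 at the low dose, 54.5 in Control, 53.3 in BMN and 46.5 at the high dose. The part of macrophages in the HMOX1 result was not tested.

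NQO1, the quinone reductase often used as a readout of NRF2, lies on chromosome 8 from 107388225 to 107403206 and was low in all libraries. Its level was 1.65 in Control, 1.78 in PAZA, 0.60 in BMN, 1.32 at the low dose and 1.84 at the high dose, from an estimated 9.48, 10.5, 4.22, 7.38 and 10.5 fragments. BMN was lowest, and no neighbours in the order differed beyond counting error. The difference of BMN from Control was -0.73 and that of the high dose from BMN 0.83, both past the fold, yet the counting intervals of the ratios ran from 0.082 to 1.31 and from 0.891 to 13.5. A difference in NQO1 was therefore not detectable at this depth.

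GSTM1, a glutathione transferase of the mu class on chromosome 3 from 108012255 to 108017973, was the gene with the widest range in log2 as scaled here. Its level was 1.16 in Control, 1.14 in PAZA, 3.31 in BMN, 0.93 at the low dose and 1.15 at the high dose, from an estimated 5.54, 5.59, 19.3, 4.32 and 5.42 fragments. BMN was highest, and no neighbours in the order, BMN and Control included, differed beyond counting error. The ratio of BMN to Control was 2.85 with a counting interval of 0.997 to 7.94. The ratios of the low and high dose to BMN were 0.281 (0.0653 to 0.794) and 0.348 (0.0949 to 0.90). Of its windows of 50 bases, 23.1% occur in another annotated gene, mostly the pseudogene GSTM2-PS1, so reads of the mu class could be split between copies. Among other genes of the class, GSTM2 was at 1.99 in Control, 4.39 in PAZA and 2.55 in BMN. GSTM5 was at 6.28 in Control, 9.23 in BMN and 12.1 at the low dose, so that neither had its highest level in BMN. The 5 profiles closest to GSTM1 were those of POLA1, ARHGAP1, HSPB6, LRBA and EDF1, within 0.045 to 0.067. For POLA1 and EDF1 the BMN value was 2 times the low-dose value after the constant between tables, as for 149 genes in all and none of the 10.

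The BMN library also stood apart in tissue markers. Summed epidermis markers were 207 in BMN, 68.4 in Control and 2.17 to 12.9 in the libraries with PAZA. Fibroblast markers summed to 817 in BMN against 313 to 534 elsewhere. Skeletal muscle markers summed to 200 in BMN and 230 at the high dose, against 11.2 to 65.3 elsewhere. All of the 5 epidermis, 6 fibroblast and 7 muscle markers found were above 0 in BMN, and at the low dose 2 epidermis markers (KRT5 and KRT1) and 3 muscle markers (CKM, TNNC2 and MYL1) were listed at 0. GSTM1, TXNRD1 and GCLM were also highest in BMN, and the part of these tissues in their levels was not tested.

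Read by comparison, few of the 10 genes were past the fold against Control. In PAZA against Control 0 of 10 were past the fold, where 24.6% of all 13979 genes were. In BMN against Control these were GSTM1 (higher) and NQO1 (lower), 2 of 10 beside 19.7% of all genes, and 0 of 8 without these weakly expressed genes. In low-dose BMN/PAZA against Control they were HMOX1 (higher) and TXNRD1 (lower), 2 of 10 beside 23.8%, and at the high dose TXNRD1 and GCLM (both lower), 2 of 10 beside 26%. Their median differences from Control were -0.018 in PAZA, -0.14 in BMN, -0.19 at the low dose and -0.11 at the high dose, and those of all genes were -0.068, 0.084, -0.026 and -0.16. These 4 comparisons share the Control library.

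As scaled here, the comparisons of both BMN/PAZA libraries with BMN had the highest shares of all genes past the fold. In low-dose BMN/PAZA, HMOX1 was higher and GCLM, TXNRD1 and GSTM1 were lower than in BMN, 4 of 10 beside 27.8% of all genes. In high-dose BMN/PAZA, NQO1 was higher and the same 3 genes lower, 4 of 10 beside 29.4%, and 2 of 8 without NQO1 and GSTM1. With median ratio scaling the low dose had NQO1, HMOX1 and PRDX1 higher and the same 3 lower, 6 in all beside 25.3% of all genes, and the high dose had NQO1 and GCLC higher and the same 3 lower, 5 in all beside 22.2%. By that scaling the share for the high dose against BMN was below that for PAZA against Control, at 23.7%. Under the main scaling the medians against BMN were -0.061 and -0.10 for the 10 genes and -0.13 and -0.26 for all genes. Both comparisons share the BMN library. Low-dose BMN/PAZA against PAZA had 0 of 10 past the fold beside 17.3% of all genes, and against the high dose it had 1 of 10, HMOX1, beside 19%. The largest difference between low-dose BMN/PAZA and PAZA was -0.44, for TXNRD1. At a fold of 2, GSTM1 was past it in the low dose against BMN, where 9.01% of all genes were, and GCLM, TXNRD1 and GSTM1 in the high dose against BMN, where 9% were. On this scale no member reached a fold of 2 in PAZA, BMN, the low dose or the high dose against Control, where 7%, 6.78%, 7.11% and 7.98% of all genes did, or in the low dose against PAZA (5.19%) or the high dose (5.72%). The pseudocount of 1 holds back genes of low level here, since the ratios of BMN to Control without it were 2.85 for GSTM1 and 0.365 for NQO1.

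**Figure D3:**
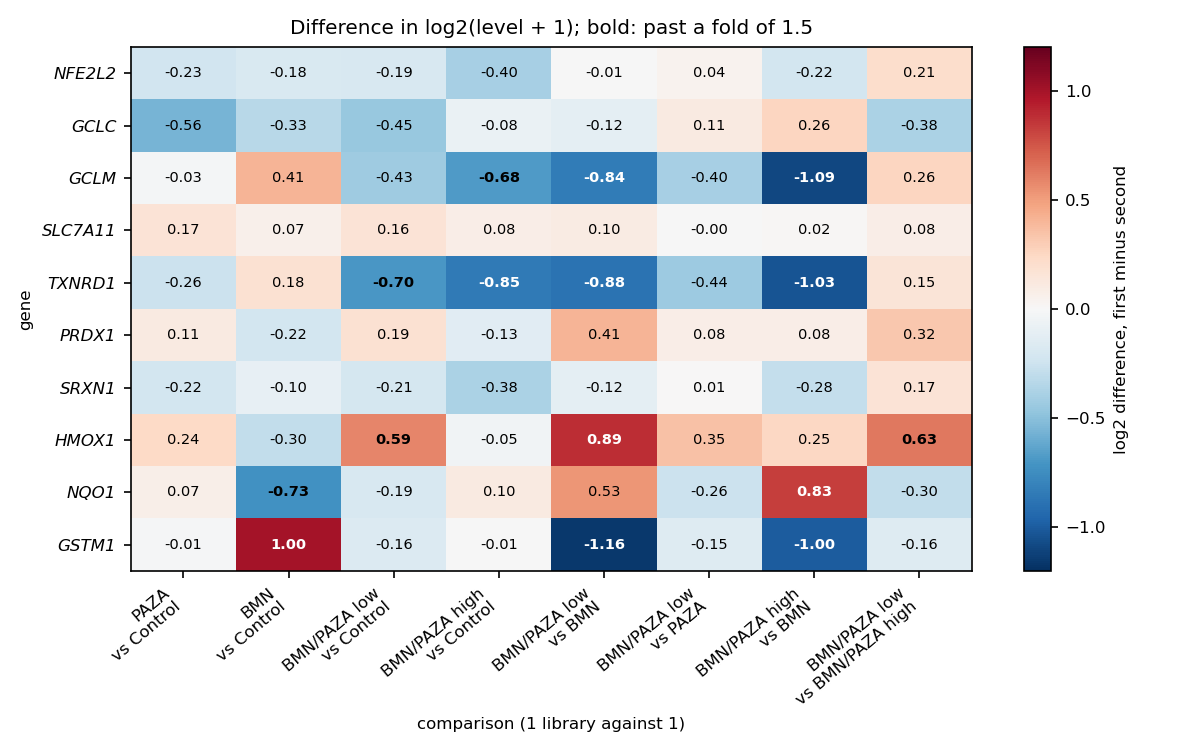
Difference in log2(level + 1) of the 10 genes (rows) in 8 comparisons of 1 library with 1 other (columns), red where the first library is higher and blue where it is lower, with values past a fold of 1.5 in bold. TXNRD1 is past the fold in all 4 comparisons of a BMN/PAZA library with Control or BMN, and NFE2L2, GCLC, SLC7A11, PRDX1 and SRXN1 in none.

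Other genes of oxidant defence were taken as lists by role, of which 75 of 83 genes were found. Of these 75, 8 were higher and 6 lower past the fold in PAZA against Control, 6 and 4 in BMN, 10 and 2 at the low dose and 4 and 11 at the high dose. Among all genes, 10.5% were higher and 14% lower in PAZA, 12.9% and 6.75% in BMN, 11.2% and 12.7% at the low dose, and 8.31% and 17.7% at the high dose. The split at the high dose turned with the scaling. By the median ratio, 10 of the 75 were higher and 5 lower there, beside 13.1% and 9.41% of all genes. By that scaling 12 were higher and 5 lower in PAZA, beside 13.3% and 10.4% of all genes, 5 and 5 in BMN, beside 10.4% and 8.13%, and 11 and 2 at the low dose, beside 13.6% and 9.54%. The values of TXNIP, RBX1, GPX4 and SOD2 were not proportional between tables, and without them 3 genes were higher and 3 lower in BMN.

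Of the 17 glutathione transferases and peroxidases, 6 were higher and 2 lower past the fold in PAZA. The counts were 3 and 0 in BMN, 4 and 0 at the low dose and 2 and 0 at the high dose. Median differences were 0.38, 0.11, 0.011 and 0.26 in this order, and those of all genes -0.068, 0.084, -0.026 and -0.16. Of all genes, 10.5% were higher and 14% lower in PAZA, and 12.9% and 6.75% in BMN. The shares were 11.2% and 12.7% at the low dose, and 8.31% and 17.7% at the high dose. By the median ratio the counts were 7 and 1, 3 and 1, 5 and 0, and 6 and 0, beside the shares given above for that scaling. MGST2, a microsomal glutathione transferase, was at 2.48 in Control, 12.7 in PAZA, 4.58 in BMN, 6.75 at the low dose and 11.3 at the high dose. It stood above Control in each treated library, by 1.98 in PAZA and 1.82 at the high dose. GPX1, the main cytosolic glutathione peroxidase, was at 118 in Control, 193 in PAZA, 141 in BMN, 235 at the low dose and 135 at the high dose, and so peaked where HMOX1 did. GPX3, the secreted peroxidase, was at 10.4 in PAZA and 10.1 in BMN against 4.09 in Control. GSTM4 was at 2.02 in PAZA against 0.165 in Control, and GSTA1 was listed at 0 in PAZA against 1.49. Both count among the 8 genes past the fold in PAZA, but their levels are as low as those of NQO1 and GSTM1, and their counting error was not computed. GPX4, the lipid peroxidase, was listed at 483 in BMN and 136 in Control, but this BMN value is 2 times the low-dose value after the constant between tables. It counts among the genes past the fold in BMN and at the low dose (215), and its low-dose values were not proportional between tables.

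Among exporters and detoxifying enzymes, ABCC3, which exports conjugates, was at 4.11 in Control and at 1.70 in PAZA, 1.47 in BMN, 1.14 at the low dose and 0.69 at the high dose, below Control in each. ABCC1 was at 19.6 at the low dose against 10.3 in Control. The carbonyl reductase CBR3 was at 3.81 in Control, 1.66 in BMN and 1.82 at the low dose, and PIR, an iron-binding NRF2 target, at 0.875 in BMN against 2.57. UGT1A6A was at 3.15 at the high dose against 1.28, and BLVRB, the second biliverdin reductase, at 97.2 against 62.2. Levels of ABCC3, CBR3, PIR and UGT1A6A are in part as low as those of NQO1 and GSTM1, and their counting error was not computed. CAT, which encodes catalase, was at 40.7 in Control, 27.1 in PAZA, 42.9 in BMN, 27.4 at the low dose and 20.1 at the high dose. Of the 12 other genes of the thioredoxin list, 4 (TXNIP, TXNRD3, GLRX and GLRX2) were lower past the fold at the high dose and 0 were higher, beside 17.7% and 8.31% of all genes. By the median ratio TXNRD3 and GLRX were lower and PRDX2 higher, beside 9.41% and 13.1%. GLRX, a glutaredoxin, was at 40.5 in Control, 20.3 in PAZA, 28.9 in BMN, 33.9 at the low dose and 16.2 at the high dose. TXNIP, the inhibitor of thioredoxin, was at 124 in Control, 48.7 in PAZA, 69.3 in BMN, 89.0 at the low dose and 70.7 at the high dose. CHAC1, which degrades glutathione, was at 2.24, 0.335, 1.56, 1.60 and 2.61 in the same order. Its levels are also as low as those of NQO1 and GSTM1, without a computed counting error. RBX1, a subunit of the CUL3 ligase, was listed at 271 in BMN against 117 in Control, a BMN value 2 times the low-dose value as for GPX4.

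NADPH supply genes had the lowest list median at the high dose. The median difference of the 6 genes from Control was -0.53 there, beside -0.16 for all genes, and -0.31 at the low dose, -0.10 in PAZA and -0.0026 in BMN. At the high dose 3 of 6 were lower past the fold, beside 17.7% of all genes, IDH1 at 25.7 against 50.5, TKT at 46.2 against 76.8 and ME1 at 16.2 against 26.6. By the median ratio IDH1 alone was past it (-0.70), with TKT at -0.47 and ME1 at -0.44, and the list median was -0.29 beside 0.00067 for all genes. G6PDX, the entry enzyme of the pentose phosphate pathway, was at 25.1 in Control and 19.1 at the high dose, short of the fold. Of the 9 regulators found, 2 were lower past the fold at the high dose, beside 17.7% of all genes, and 0 in the other treated libraries. They were CUL3, the scaffold of the ligase that degrades NRF2, at 173 against 278 in Control, and NFE2L1, a relative of NRF2, at 49.5 against 86.8, and by the median ratio neither was past the fold (-0.43 and -0.55).

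**Figure D4:**
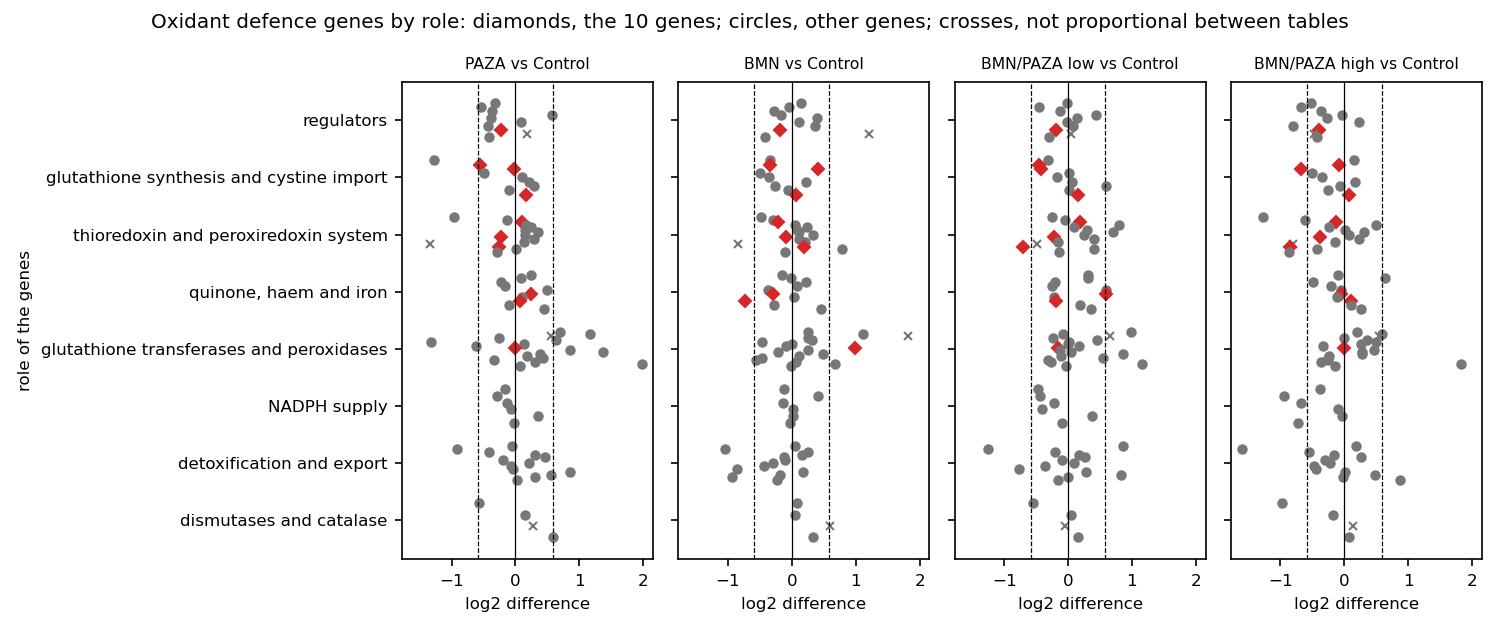
Difference in log2(level + 1) from Control (x axis) of oxidant defence genes grouped by role (y axis) in 4 treated libraries, 1 panel each. Diamonds are the 10 genes, circles other genes, crosses genes whose values were not proportional between tables, and dashed lines a fold of 1.5. Of the other genes, 10 lie beyond the right line and 2 beyond the left line at the low dose, and 4 and 11 at the high dose, which turned to 10 and 5 with median ratio scaling.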

How the data were processed

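The authors deposited 5 tables of 2 libraries each, made from reads mapped to GRCm38 with HISAT2 and StringTie per the labels (versions not given in the sources used here). No unit is named in the deposited tables. The values the authors deposited were treated as FPKM, since their products with GENCODE M21 transcript lengths, for genes with 1 transcript, clustered at multiples of 1 weight. Of the products between 0.5 and 3.5 weights, 50.8% to 63.8% lay within 0.1 of a whole multiple.

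Control and PAZA were taken from their shared table, BMN and high-dose BMN/PAZA from theirs, and low-dose BMN/PAZA from the table with the high dose, where its column carries another constant (3.41 times that of the table with PAZA). The highest-mean row was used per symbol, and each column was scaled to a sum of 1000000 over shared symbols, so levels set across tables rest on this scaling. The pseudocount was 1. Where 2 tables hold a library, genes whose ratio lay over 0.5% from the median ratio were named not proportional. Depth was estimated from the columns without that constant, and fragments used the length of the principal transcript. A sum is open to abundant genes, and the highest gene of a column took 10.6% to 16.4% of it.

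The 10 genes and all lists were chosen with earlier results of these data known. Genes named from the wider lists are the 3 highest and 3 lowest differences from Control among those reaching a level of 1, with others named after their values were seen. Markers of leukocytes, macrophages, neutrophils, erythroid cells, endothelium, fibroblasts, skeletal muscle, epidermis, adipocytes and proliferation were used. Summed levels ranged from 188 to 283 for leukocyte, 64.6 to 233 for neutrophil, 2.13 to 3.86 for erythroid, 36.1 to 62.8 for endothelium and 44.5 to 105 for adipocyte markers. The scaling was tested on data simulated from the Control library, with as many genes raised as lowered. Libraries of differing composition were not simulated, so that test does not speak to them. Scripts ran on Python 3.11.15 with pandas 2.3.3, scipy 1.17.1, matplotlib 3.10.9 and numpy 2.4.6.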

Additional observations from a re-analysis of the deposited data

Results flagged for a closer look

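HMOX1 had differences from Control of opposite sign at the 2 doses of BMN/PAZA. It was above Control at the low dose, by 0.59 on the log2 scale, and below it at the high dose, by -0.045, which is within counting error (ratio 0.967, 95% counting interval 0.723 to 1.28). The difference between the doses was not tested, since 1 library stands for each dose, and with median ratio scaling the high dose lay above Control by 0.20.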

How the results depend on the processing

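No paired analysis was possible because each group has 1 library. Depth limits NQO1 and GSTM1, which stayed under 20 estimated fragments in every library. Of 80 differences of the 10 genes, 14 changed direction with median ratio scaling, none of them past the fold. Over all settings, 423 values of single genes moved by less than 0.1 and 107 by more. The setting that kept only genes with a mean level of at least 1 left the values of all 10 genes unchanged by construction. It therefore could not move a value or change a call, here or where every setting is said to keep a gene past the fold.

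Members past the fold numbered 0 in PAZA, 2 in BMN, 2 at the low dose and 2 at the high dose against Control, 4 and 4 for the low and high dose against BMN, and 1 for the low against the high dose. A pseudocount of 0.1 gave 1 for PAZA and 5 for low against BMN, where 40.2% and 41.5% of all genes were past the fold. Taking libraries from the other table gave 1 for the low dose against Control. Scaling over all symbols or by the median ratio gave 1 for the high dose against Control, and the median ratio gave 0 for low against high, 6 for low against BMN and 5 for high against BMN, beside 17.9%, 25.3% and 22.2% of all genes. At a fold of 2 the counts were 0 for BMN, low and high against Control and for low against high, and 1 for low against BMN. Without the 2 weakly expressed genes, a setting chosen after seeing the data, they were 0 for BMN against Control, 3 for low against BMN and 2 for high against BMN. Of the wider lists, 6 genes were higher in BMN than in Control and 3 without genes not proportional between tables, and at the high dose 4 were higher and 11 lower, against 10 and 5 with median ratio scaling, both settings added after seeing the data.

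The median over the members moved from -0.018 to -0.12 in PAZA against Control and from -0.11 to -0.26 for the high dose without the weakly expressed genes. Scaling over all symbols gave -0.034 for BMN and -0.0032 for the high dose against Control, and 0.10 for low against PAZA. The median ratio gave 0.12 for the high dose against Control, 0.13 and 0.20 for low and high against BMN, and 0.014 for low against high. Values as deposited gave 0.099 and 0.032 for low and high against BMN. For low against high the deposited values put all 10 genes past the fold, beside 78.4% of all genes, at a median of 1.79, by the constant of that column. Otherwise the cause was not tested.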
